A study of Homo sapiens with 10 samples.

Results

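Transcription factor genes that mark lung, hepatic or gastric, and squamous identity were followed in poly(A) RNA from A549 and H1944 cells, 2 established human lines of lung adenocarcinoma. They were chosen by symbol: NKX2-1, FOXA1, FOXA2, HNF4A, HNF4G, GATA6, SOX2 and TP63, which are 8 of the 28281 gene rows, and all 8 were present in both count tables. In A549 there were 3 libraries of APEX1 knockout cells (KO) and 3 of wild-type cells (WT), and in H1944 there were 2 KO and 2 WT libraries. The product of APEX1 is APE1, an endonuclease that cuts DNA at abasic sites and also reduces certain transcription factors, and the study's title links APE1 to urea cycle genes and DNA G-quadruplexes. A549 was grown in DMEM and H1944 in an RPMI medium with pyruvate, both with fetal serum and antibiotics, so line and medium cannot be told apart. The labels do not state whether a group was 1 clone or a pool, or whether its libraries are separate cultures, so p-values measure only the spread between these libraries. The A549 KO columns carry the numbers 16, 65 and 66 and no genotype, and were placed in KO because the labels leave no other A549 group for them.

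NKX2-1 is the transcription factor that specifies thyroid and distal lung epithelium and switches on surfactant genes, and it is a diagnostic marker of lung adenocarcinoma. FOXA1 and FOXA2 are pioneer factors of endoderm that open chromatin for other factors, among them NKX2-1 in lung and the nuclear receptor HNF4A in liver and gut. In mouse lung tumours that have lost NKX2-1, FOXA1 and FOXA2 bind at gastric and hepatic genes and HNF4A comes on. HNF4G is the paralog of HNF4A, GATA6 is a zinc finger factor of endoderm and of lung epithelium, and SOX2 and TP63 specify basal cells of the airway and squamous tumours.

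Total counts ran from 18314224 to 30219850 per library, and levels are given as CPM, counts scaled to library size with TMM factors over all 10 libraries. A count of 0 allows up to 3 counts, which is 0.0986 to 0.143 CPM in these libraries, and floors and intervals cover counting error only. In A549, WT 1 and KO 65 stood apart from the other libraries. Ribosomal RNA genes took 0.337% of counts in KO 65 and 14.2% and 7.19% in KO 16 and KO 66, against 0.284% in WT 1 and 6.45% and 6.46% in WT 2 and WT 3. A549 results are therefore also given within these 2 sets of libraries. APEX1 itself (chromosome 14, 20455191 to 20457772, GRCh38) measured 77.3 ± 27.6 CPM in A549 KO and 225 ± 53.2 CPM in A549 WT (SD, n = 3 each), and 85.6 ± 0.235 CPM in H1944 KO against 239 ± 0.748 CPM in H1944 WT (SD, n = 2 each). It was lower in every KO library but still present, with an edgeR adjusted p of 0.521 in A549 and 6.43e-19 in H1944. By DESeq2 the adjusted p in A549 was 0.00146. The epithelial keratins KRT8 and KRT18 were abundant in both lines. In A549 they averaged 9990 ± 4080 and 6100 ± 2620 CPM in KO and 11000 ± 5060 and 7150 ± 3210 CPM in WT. In H1944 they averaged 9560 ± 111 and 7780 ± 189 CPM in KO and 5440 ± 89.7 and 3950 ± 14.6 CPM in WT. The keratins KRT7 and KRT19 averaged 2800 ± 937 and 135 ± 85.1 CPM in A549 WT. In H1944 WT they were low, at 5.68 ± 0.5 and 1.35 ± 0.00676 CPM (SD, n = 3 in A549 and 2 in H1944 groups). The leukocyte gene PTPRC had at most 1 count in any A549 library, 0 in H1944 KO and 5 to 9 in H1944 WT. CD68, also listed as a leukocyte marker, averaged 37.7 ± 8.07 CPM in A549 WT and 27 ± 1.19 CPM in H1944 WT (SD, n = 3 and 2).

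Because the title names G-quadruplexes, promoter windows of the members were searched for the canonical motif, 4 runs of at least 3 G with loops of 1 to 7 bases, on both strands. The windows come from RefSeq (GRCh38.p14) and hold 250 bases before and 50 after a gene's start. There were 8 windows for 6 of the members, with 2 each for NKX2-1 and HNF4A. The motif lay on the sense strand of both NKX2-1 windows and of the FOXA1 window, and on the antisense strand of the GATA6 window. It was in neither HNF4A window and not in the SOX2 or TP63 window. Of all 35116 windows of that length, 25% held it on either strand, 14.4% on the sense and 13.1% on the antisense strand. Windows of 3 genes are shown, chosen with their changes in the knockouts known. Capitals mark the motif (runs of C where it is on the antisense strand).
FOXA1 promoter, chr14:37595200-37595499, minus strand: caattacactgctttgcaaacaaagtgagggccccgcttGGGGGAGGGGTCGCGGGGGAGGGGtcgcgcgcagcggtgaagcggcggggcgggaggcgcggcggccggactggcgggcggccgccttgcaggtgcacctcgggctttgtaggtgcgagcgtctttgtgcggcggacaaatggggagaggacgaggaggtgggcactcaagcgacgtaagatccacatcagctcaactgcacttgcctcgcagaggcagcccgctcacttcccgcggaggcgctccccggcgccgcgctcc
GATA6 promoter, chr18:22169339-22169638, plus strand: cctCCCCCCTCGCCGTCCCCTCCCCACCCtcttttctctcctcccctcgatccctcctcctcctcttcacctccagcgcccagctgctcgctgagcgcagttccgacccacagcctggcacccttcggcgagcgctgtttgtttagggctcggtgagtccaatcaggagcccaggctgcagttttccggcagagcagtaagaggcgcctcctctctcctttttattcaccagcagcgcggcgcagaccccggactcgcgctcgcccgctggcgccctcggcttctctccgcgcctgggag
SOX2 promoter, chr3:181711675-181711974, plus strand: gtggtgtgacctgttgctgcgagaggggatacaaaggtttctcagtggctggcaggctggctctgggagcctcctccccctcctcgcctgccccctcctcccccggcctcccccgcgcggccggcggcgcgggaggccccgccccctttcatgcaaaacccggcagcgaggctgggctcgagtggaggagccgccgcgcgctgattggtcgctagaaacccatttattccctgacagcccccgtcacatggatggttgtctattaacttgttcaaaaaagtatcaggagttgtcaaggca
In H1944 KO cells FOXA1, whose window holds the motif, was lower. SOX2, HNF4A and TP63, whose windows do not hold it, were lower too. GATA6, whose window holds it on the antisense strand, was not called. A match is a run of letters and not a measured structure, and no match says only that these letters are not in the window.

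The lung factor NKX2-1 (chromosome 14, 36516392 to 36521149) was at or near 0 in every library. It had 1, 1 and 0 counts in A549 KO 16, 65 and 66 and 1, 1 and 3 counts in A549 WT 1, 2 and 3, and it had 0 counts in each of the 4 H1944 libraries. It therefore passed no filter and was not tested, and no group held more than 3 counts in a library. Its neighbours NKX2-1-AS1, on the opposite strand, and SFTA3 also had 0 counts in all 10 libraries. Both lines carry the adenocarcinoma label, and in both the defining lung factor was below what these libraries can separate from background.

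FOXA1 (chromosome 14, 37589984 to 37596059, minus strand) was well above the floor in every library of both lines. It measured 53.5, 58.1 and 18.4 CPM in A549 KO 16, 65 and 66, against 37.9, 26.8 and 29 CPM in A549 WT 1, 2 and 3. The KO libraries lie on both sides of the WT ones. In H1944 it measured 24.5 and 22.3 CPM in KO 1 and 2, against 49.1 and 49.3 CPM in WT 1 and 2, so both KO libraries were below both WT libraries. The H1944 fall was 2.1-fold (log2 fold change -1.07, SE 0.07, edgeR adjusted p = 5.95e-12).

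FOXA2 (chromosome 20, 22581005 to 22585455, minus strand) was far more abundant in A549 than in H1944. It measured 24.2, 48.7 and 33 CPM in A549 KO 16, 65 and 66, against 41.9, 33.1 and 28.6 CPM in A549 WT 1, 2 and 3, with the groups mixed. In H1944 it had 0 counts in both KO libraries and 15 and 37 counts in WT 1 and WT 2. H1944 KO was therefore at least 11.8-fold lower than H1944 WT, against 3 counts per KO library. The edgeR adjusted p was 7.38e-06. FOXA2 passed the filter on low counts only through H1944 WT there, so this adjusted p is no support of its own. The lncRNA LINC00261, 2363 bases from FOXA2 on the same strand, averaged 3.96 ± 2.57 CPM in A549 KO and 2.62 ± 2.52 CPM in A549 WT (SD, n = 3 each), and had 0 counts in H1944 KO and 1 count in H1944 WT.

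The paralogs HNF4A and HNF4G were divided between the lines. HNF4A (chromosome 20, 44355700 to 44434596) measured 31.4, 25.1 and 14.6 CPM in A549 KO 16, 65 and 66, against 16.7, 14.4 and 15.6 CPM in A549 WT 1, 2 and 3. KO 16 and KO 65 were above the WT libraries and KO 66 lay among them. In H1944 it had 6 and 4 counts in KO 1 and 2 against 28 and 29 counts in WT 1 and 2. That is 0.169 ± 0.0538 CPM in KO and 1.29 ± 0.0989 CPM in WT (SD, n = 2 each). HNF4A fell 7.44-fold there (log2 fold change -2.89, SE 0.50, edgeR adjusted p = 3.19e-05). It passed the filter on low counts only through H1944 WT, so this adjusted p is no support of its own.

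HNF4G (chromosome 8, 75407914 to 75566843) measured 9.57, 11.2 and 3.41 CPM in A549 KO 16, 65 and 66, against 9.23, 4.44 and 5.04 CPM in A549 WT 1, 2 and 3, with no separation. In H1944 it measured 8.4 and 9.43 CPM in KO 1 and 2, against 46.6 and 47.7 CPM in WT 1 and 2. This was a 5.28-fold fall (log2 fold change -2.40, SE 0.08, edgeR adjusted p = 1.6e-16), to a level that overlaps that of A549 KO. In bulk RNA, fewer cells with an mRNA and less of it per cell cannot be told apart.

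GATA6 (chromosome 18, 22169443 to 22202528) was the member with a positive fold change in both lines, and passed in neither. It measured 10.4, 12 and 6.24 CPM in A549 KO 16, 65 and 66, against 5.12, 5.36 and 4.71 CPM in A549 WT 1, 2 and 3, with every KO library above every WT library. In H1944 it measured 1.76 and 2.83 CPM in KO 1 and 2, against 1.87 and 1.22 CPM in WT 1 and 2, and the groups overlap. The log2 fold changes were 0.94 (SE 0.30, edgeR adjusted p = 0.743) in A549 and 0.57 (SE 0.31, edgeR adjusted p = 0.111) in H1944. Without H1944 KO 1 or without H1944 WT 1 it was called in H1944, at 0.87 and 0.91 (edgeR adjusted p = 0.0228 and 0.0281). GATA6-AS1, transcribed from the opposite strand, averaged 0.8 ± 0.38 CPM in A549 KO and 0.344 ± 0.0198 CPM in A549 WT (SD, n = 3 each), and reads from the overlap may have been assigned to either gene.

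SOX2 (chromosome 3, 181711924 to 181714436) was higher in every A549 KO library than in A549 WT and fell in H1944 KO. It measured 28, 57.2 and 23.6 CPM in A549 KO 16, 65 and 66, against 15.2, 6 and 6.41 CPM in A549 WT 1, 2 and 3, so every KO library was above every WT library. In H1944 it had 0 and 2 counts in KO 1 and 2, against 64 and 34 counts in WT 1 and 2. Its A549 difference was 3.95-fold (log2 fold change 1.98, SE 0.51; 1.51 without KO 65 and 2.59 without WT 1) and did not pass over all genes by edgeR (adjusted p = 0.65), but did by DESeq2 (adjusted p = 0.014). In H1944 it fell, with a count ratio of 65.5 in WT over KO (95% exact binomial interval 17.7 to 548) and an edgeR adjusted p of 8.3e-08. SOX2 passed the filter on low counts only through H1944 WT there, so this adjusted p is no support of its own. The host lncRNA SOX2-OT, on the same strand, had 3 to 6 counts in the A549 KO libraries, 1 to 2 in the A549 WT libraries and 0 in H1944.

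TP63 (chromosome 3, 189631416 to 189897279), the regulator of squamous and basal cells, gave the same picture at lower levels. It measured 10.2, 27.1 and 5.34 CPM in A549 KO 16, 65 and 66, against 4.69, 3.34 and 3.11 CPM in A549 WT 1, 2 and 3, again without overlap. In H1944 it had 6 and 10 counts in KO 1 and 2, against 28 and 17 counts in WT 1 and 2. In A549 the difference was 3.85-fold, or 1.94 on the log2 scale (SE 0.59, edgeR adjusted p = 0.715), and 1.10 without KO 65. The H1944 fall was 3.7-fold (log2 fold change -1.89, SE 0.50, edgeR adjusted p = 0.0022). TP63 passed the filter on low counts only through H1944 WT there, so this adjusted p is no support of its own. The H1944 call rests on WT 1: without it the log2 fold change was -1.55 with an edgeR adjusted p of 0.0821. TP63 has several promoters and isoforms, which these gene counts do not separate.

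**Figure D1:**
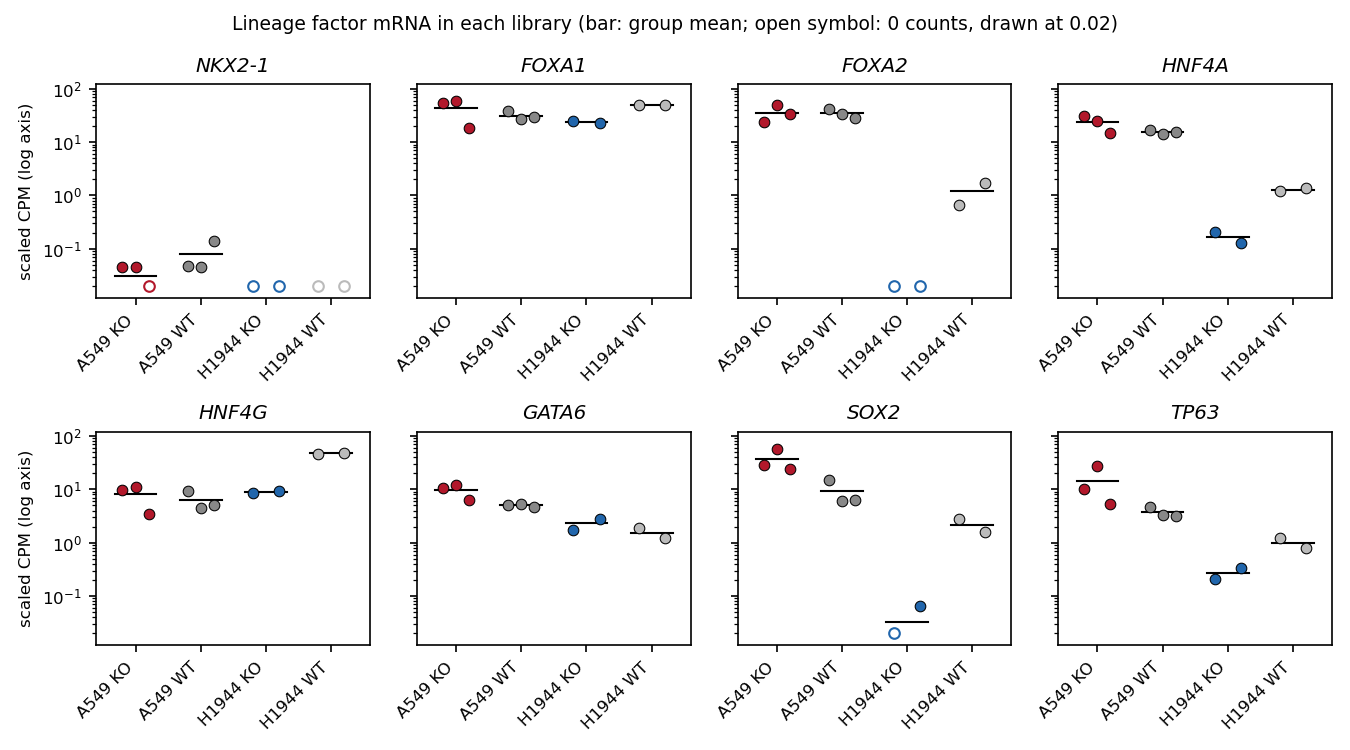
Level of each of the 8 genes in each of the 10 libraries, as scaled CPM on a log axis, with A549 KO, A549 WT, H1944 KO and H1944 WT from left to right; bars are group means and open symbols are libraries with 0 counts. SOX2 and TP63 are higher in every A549 KO library than in any A549 WT library and lower in both H1944 KO libraries than in both H1944 WT libraries, and NKX2-1 stays at or below 0.141 CPM throughout.

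As a group, 6 of the 7 tested members fell in H1944 KO, with 0 higher and GATA6 not called. The background was high: 67.1% of the 16626 genes tested in H1944 were called at an edgeR adjusted p under 0.05, 33.9% lower and 33.2% higher. Libraries of the 2 groups did not overlap for the same 6 members, all lower in KO, where 82.5% of all genes did not overlap, 41.4% lower and 41.1% higher. The median log2 fold change was -2.40 for the members and -0.01 for all genes. FOXA2, HNF4A, SOX2 and TP63 passed the filter on low counts only through the WT libraries, so a difference in them was to be found by construction, and the count and the median carry no weight of their own. FOXA1, HNF4G and GATA6 passed through both groups. With a biological coefficient of variation of 4.74% in H1944, as edgeR estimates it from 2 against 2 libraries, small differences pass.

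In A549 KO none of the 7 tested members was called by edgeR, where 0.00633% of the 15806 genes tested were called, which is 1 gene. The same fit gave 895 genes and 3 members, GATA6, SOX2 and TP63, under 0.05 without adjustment; DESeq2 called 125 genes and 1 member, SOX2, and limma-voom no member. KO libraries lay above WT libraries without overlap for these 3 of 7 members, against 10.6% of all tested genes in either direction and 5.64% in this one, and below them for none, against 4.99%. The 2-sided exact permutation p was 0.1 for each of the 3, the smallest that 3 against 3 libraries allow, and 0.7, 0.9, 0.3 and 0.8 for FOXA1, FOXA2, HNF4A and HNF4G. The biological coefficient of variation was 39% in A549. The members' median log2 fold change was 0.63, against 0.02 for all genes.

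**Figure D2:**
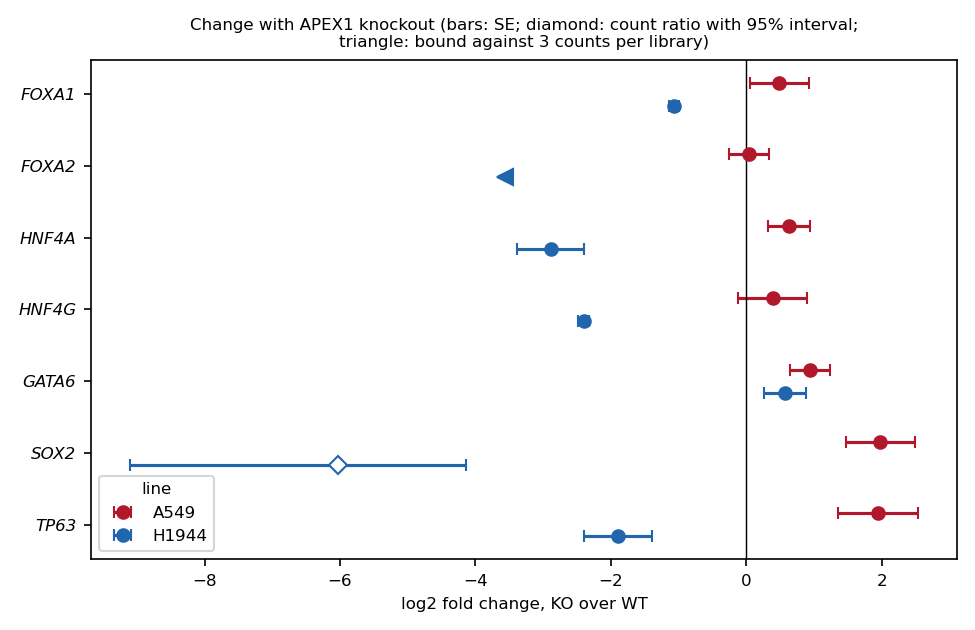
Log2 fold change of KO over WT for the 7 tested genes in A549 and H1944, with SE as bars; for SOX2 in H1944 the count ratio with its 95% interval is drawn, and for FOXA2 in H1944 the bound of 11.8-fold lower. GATA6 is right of 0 in both lines, SOX2 and TP63 are on opposite sides, and no A549 value passed in edgeR.

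Within the library sets of A549, SOX2, TP63 and GATA6 were higher in every KO library. This follows from the lack of overlap given above and is no further support, so only the sizes add to it. SOX2 was higher by 1.91, 2.16 and 1.91 on the log2 scale in KO 65, KO 16 and KO 66 than in the WT libraries of the same set, an even difference. TP63 was higher by 2.51, 1.64 and 0.71 in the same order, and GATA6 by 1.21, 1.04 and 0.31, so KO 66 was nearest to WT for both. FOXA1 (0.61, 0.94 and -0.60), HNF4A (0.59, 1.06 and -0.04) and HNF4G (0.28, 1.00 and -0.46) were above WT in KO 65 and KO 16 and below it in KO 66. FOXA2 gave 0.22, -0.35 and 0.10. The sets themselves differ for some members: WT 1 was above the mean of WT 2 and WT 3 by 1.28 for SOX2 and 0.95 for HNF4G, and by 0.03 for GATA6. With a term for the set, SOX2 had a log2 fold change of 2.03 and an edgeR adjusted p of 0.0513.

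**Figure D3:**
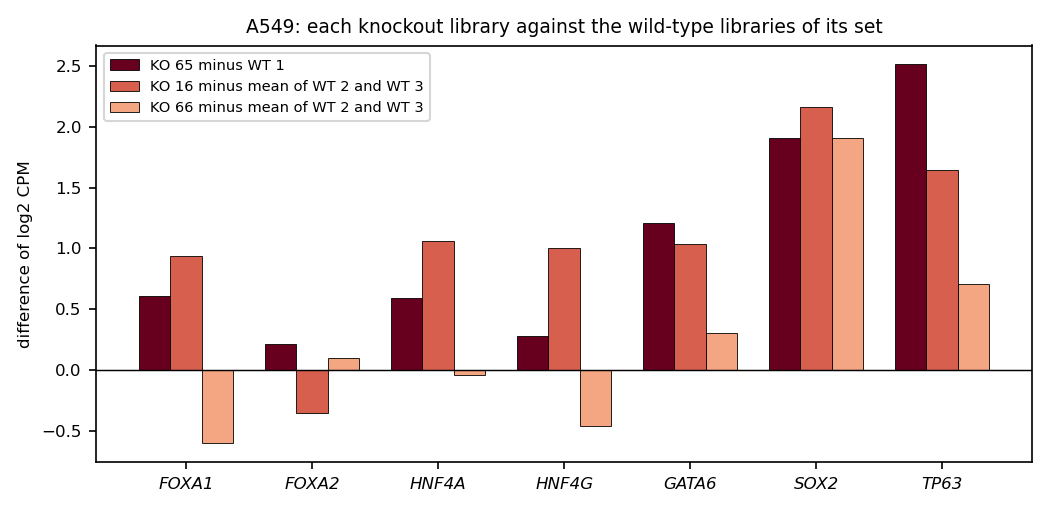
Difference in log2 CPM between each A549 KO library and the WT libraries of its set, for the 7 tested genes; bars in each group are KO 65, KO 16 and KO 66 from left to right. SOX2 stands at 1.91 to 2.16 in all of them, while FOXA1, HNF4A and HNF4G change sign in KO 66.

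The response to knockout differed between the lines for 5 of the 7 tested members, where 6.95% of 17677 genes were called and 4.1% had a more positive and 2.85% a more negative change in A549 at an adjusted p under 0.05. The test was the A549 change minus the H1944 change in 1 edgeR fit of all 10 libraries. The difference was 3.5 for HNF4A (SE 0.51, adjusted p = 0.00482), 2.77 for HNF4G (SE 0.67, adjusted p = 0.0417) and 3.82 for TP63 (SE 0.94, adjusted p = 0.0447) on the log2 scale. SOX2 and FOXA2 passed too (adjusted p = 0.00418 and 0.00793); their fitted differences of 7.8 and 7.83 depend on the prior count, since H1944 KO held 2 counts or none. FOXA1 (1.54, SE 0.58, adjusted p = 0.16) and GATA6 (0.35, SE 0.49, adjusted p = 0.738) did not pass. FOXA2, HNF4A, SOX2 and TP63 passed the filter on low counts through both A549 groups and H1944 WT, but not through H1944 KO. Their calls restate the low counts in H1944 KO and are no separate support. Of the 5 called, only HNF4G passed the filter through every group. HNF4G kept the call only in the fits without A549 KO 66 or A549 WT 1, and was at an edgeR adjusted p of 0.078 to 0.187 in the other 8 that leave out 1 library. TP63 kept it only in those without A549 KO 65, A549 KO 66 or A549 WT 1, with 0.0614 to 0.204 in the other 7, and lost it by limma-voom (adjusted p = 0.199).

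Before any knockout the lines already held different sets of these factors. All 7 tested members differed between A549 WT and H1944 WT, where 41.2% of 16857 genes were called, 20% higher in A549 and 21.2% lower. The libraries of the lines did not overlap for any of the 7, with 5 higher and 2 lower in A549, where 69.3% of all genes did not overlap, 33.4% higher and 35.9% lower. FOXA2 was 29.1-fold higher in A549 WT, at 34.6 ± 6.74 CPM against 1.19 ± 0.763 CPM in H1944 WT, and HNF4A was 12.1-fold higher, at 15.6 ± 1.14 CPM in A549 WT against 1.29 ± 0.0989 CPM in H1944 WT (SD, n = 3 and 2; edgeR adjusted p = 0.00284 and 0.000829). HNF4G went the other way, at 6.24 ± 2.61 CPM in A549 WT against 47.2 ± 0.803 CPM in H1944 WT, with 7.55-fold more in H1944 WT (SD, n = 3 and 2; edgeR adjusted p = 0.00421). SOX2, TP63 and GATA6 were 4.2-fold, 3.67-fold and 3.27-fold higher in A549 WT (edgeR adjusted p = 0.0394, 0.0129 and 0.0083). FOXA1 was lower in A549 WT by 0.65 on the log2 scale (edgeR adjusted p = 0.0494), a call that did not hold without A549 WT 2 or WT 3 or without either H1944 WT library (edgeR adjusted p between 0.142 and 0.226). SOX2 lost its call without the same 4 libraries, one at a time (edgeR adjusted p between 0.0513 and 0.214). TP63 lost it without either H1944 WT library (edgeR adjusted p = 0.0684 without WT 1 and 0.109 without WT 2), and GATA6 without H1944 WT 2 (edgeR adjusted p = 0.0765). FOXA2, HNF4A and HNF4G held in each fit that left out 1 library.

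Across the 4 groups, levels were ordered A549 KO, A549 WT, H1944 WT, H1944 KO for FOXA2, HNF4A, SOX2 and TP63. Between A549 KO and A549 WT the libraries of FOXA2 and HNF4A overlap, while the other neighbouring groups of these 4 genes do not. HNF4G was highest in H1944 WT (47.2 CPM), followed by H1944 KO (8.92), A549 KO (8.06) and A549 WT (6.24), and the last 3 groups overlap. FOXA1 was highest in H1944 WT (49.2), followed by A549 KO (43.3), A549 WT (31.3) and H1944 KO (23.4). The A549 KO libraries, at 18.4 to 58.1 CPM, span the libraries of the other 3 groups, which do not overlap each other. GATA6 was highest in A549 KO (9.55), followed by A549 WT (5.06), H1944 KO (2.29) and H1944 WT (1.54), and the 2 H1944 groups overlap.

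To compare genes with each other, CPM was divided by the length of the merged exons in GENCODE 29, a scale that takes all annotated exons as used. In A549 KO the highest levels per kilobase were SOX2 (14.4 CPM per kilobase), FOXA2 (13.6) and FOXA1 (10.9), and in A549 WT they were FOXA2 (13.3), FOXA1 (7.85) and SOX2 (3.66). In H1944 KO FOXA1 (5.88) led over HNF4G (1.86) and GATA6 (0.582), and in H1944 WT FOXA1 (12.4) and HNF4G (9.82) led over SOX2 (0.869). SOX2 was thus below FOXA2 and FOXA1 in A549 WT and above both in A549 KO.

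Genes with the most similar profile were sought among the 14984 others tested in both lines, as the smallest root mean square difference of log2 CPM over the 10 libraries after centring each gene. For HNF4A these were TOX3 (0.31) and APOH (0.43), which encodes a plasma glycoprotein, where the median gene stood at 2.62. For FOXA2 they were the lncRNA LINC02864 (0.46) and MMP7 (0.66), a secreted metalloproteinase, against a median of 3.55. For SOX2 the nearest were TCIM (0.85) and APOH (0.95), against a median of 3. For TP63 they were NCMAP (0.45) and HMGA2 (0.52), a chromatin protein, and for HNF4G they were GULP1 (0.24) and SLC40A1 (0.26), the iron exporter. FOXA1 was nearest to SLC41A2 and TAOK3 (0.20 each), and GATA6 to PLCL2 (0.23) and GOLGA8A (0.27), which has near-identical copies and is uncertain. Among the members the closest pair was FOXA1 and HNF4G (0.93), followed by HNF4A and SOX2 (0.98). The median gene stood at 0.76 from FOXA1 and 1.3 from HNF4G, so HNF4G was less like FOXA1 than the median gene was. These values describe only these libraries, of 2 lines.

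Genes of 5 lists are set beside the members, and their H1944 counts are to be read against the 33.9% of all tested genes that were lower and the 33.2% that were higher. Genes that passed the filter on low counts through 1 group only were let in by their higher level there, which favours a difference. The counts are therefore also given for the genes that passed through both H1944 groups. Of 22 listed surfactant and alveolar genes, 10 were tested in H1944, and 7 fell and 1 rose (median log2 fold change -1.62, against -0.01 for all genes). Of the 8 that passed through both groups, 5 fell and 1 rose. NKX2-1 had 0 counts in H1944 KO and WT, and its part in the changes of this list was not tested. HOPX, a homeodomain protein of alveolar type 1 cells, averaged 1.15 ± 0.0415 CPM in KO and 41.4 ± 0.993 CPM in WT, and SFTPD, a secreted collectin, averaged 1.55 ± 0.0561 CPM in KO and 24.9 ± 1.41 CPM in WT (SD, n = 2 each; edgeR adjusted p = 1.34e-19 and 1.48e-16). NAPSA, an aspartic protease that processes surfactant protein B, and MUC1, a membrane mucin, had log2 fold changes of -3.4 and -2.74 (edgeR adjusted p = 2.47e-11 and 5.31e-18). ETV5, a factor that maintains alveolar type 2 cells in mice, rose 1.93-fold. The surfactant genes SFTPA1, SFTPA2, SFTPB and SFTPC had 0 to 6 counts in every library of both lines and were not tested. In A549, 5 of the list were tested and none was called by edgeR, with 1 under 0.05 without adjustment; ABCA3, the lipid transporter of lamellar bodies, averaged 26.6 ± 1.25 CPM in KO and 47.3 ± 3.95 CPM in WT (SD, n = 3 each; edgeR adjusted p = 0.521, DESeq2 adjusted p = 0.00197).

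Hepatic genes include many known targets of HNF4A and FOXA factors. Of 14 tested in H1944, 11 fell and 1 rose in KO, against 33.9% and 33.2% of all genes, with a median of -3.01. Of these, 6 passed the filter only through WT and 1 only through KO, so their difference was found by construction; of the 7 that passed through both groups, 5 fell and 2 were not called (median -1.71). UGT2B4, a bile acid glucuronosyltransferase whose reads near-identical family members may share, had 2 and 1 counts in KO 1 and 2 and 11056 and 10727 in WT 1 and 2, a ratio of 9700 in WT over KO (95% exact binomial interval 3320 to 47100). AGT, the angiotensin precursor, and AMBP, a plasma protein precursor, had log2 fold changes of -5.52 and -3.18, and F10, a clotting factor, rose 5.53-fold. UGT2B4 and AGT passed the filter only through WT and F10 only through KO, while AMBP passed through both. CPS1, the first urea cycle enzyme and of the gene class that the title names, fell by 1.71 on the log2 scale. In A549 none of 11 tested was called by edgeR (median 0.14), with 3 under 0.05 without adjustment. CPS1 averaged 4.83 ± 3.09 CPM in KO and 29.3 ± 14.7 CPM in WT, and F2 (prothrombin) averaged 1.68 ± 0.647 CPM in KO and 0.719 ± 0.112 CPM in WT (SD, n = 3 each). DESeq2 called 1 of the list in A549, CPS1 (adjusted p = 0.00069).

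Of 10 gastric and intestinal genes tested in H1944, 7 fell and 1 rose in KO, against 33.9% and 33.2% of all genes (median -2.33). The 7 that fell were among the 8 that passed the filter through both groups, and TFF2, which rose, passed only through KO. CDH17, the intestinal cadherin, averaged 3.34 ± 0.359 CPM in KO and 586 ± 1.38 CPM in WT, and MUC5AC, the gel-forming mucin of stomach and airway, averaged 1.08 ± 0.134 CPM in KO and 19.7 ± 2.22 CPM in WT (SD, n = 2 each; edgeR adjusted p = 5.81e-28 and 2.36e-15). MYO1A, a brush border myosin, and ANXA10, an annexin of gastric epithelium, had log2 fold changes of -5.28 and -3.74. TFF2, a gastric trefoil peptide, was the gene that rose, with 28 counts in KO and 1 in WT, a ratio of 20.9 (95% exact binomial interval 3.46 to 857). In A549 none of 9 tested was called by edgeR, DESeq2 or limma-voom (median 0.22), with 3 under 0.05 without adjustment in edgeR. TFF1 and LGALS4 had log2 fold changes of 2.09 and 2.24 and edgeR adjusted p of 0.805 and 0.848, and LGALS4 gave 1.05 without KO 16. TFF1 was not above WT in each KO library: within the sets it gave 3.4, 1.97 and -0.27.

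Of 14 squamous genes tested in H1944, 6 fell and 3 rose in KO, with a median of -0.06; 67.1% of all genes were called. Of the 8 that passed the filter through both groups, 3 fell and 1 rose. KRT6A and DSG3 passed only through WT, and CLCA2 and BNC1 only through KO, so their differences were found by construction. KRT6A, a stress keratin of squamous epithelium, had a log2 fold change of -4.1 (edgeR adjusted p = 4.2e-10). DSG3, a desmosomal cadherin, had 3 counts in KO and 101 in WT, a ratio of 45 in WT over KO (95% exact binomial interval 15 to 222). CLCA2, a p63 target of basal cells, went the other way with 112 counts in KO and 1 in WT, a ratio of 83.8 (95% exact binomial interval 14.7 to 3340). BNC1, a basal keratinocyte factor, was at least 5.5-fold higher in KO, against 3 counts per WT library, and ITGB4, a hemidesmosome subunit, rose 1.23-fold. In A549, where every KO library was above every WT library for SOX2 and TP63, none of 10 tested was called by edgeR, DESeq2 or limma-voom (median 0.33), with 1 under 0.05 without adjustment in edgeR. DSC3, a desmosomal cadherin, averaged 10.6 ± 3.98 CPM in A549 KO and 4.17 ± 0.784 CPM in A549 WT (SD, n = 3 each; edgeR adjusted p = 0.664) and was higher by 1.25, 1.85 and 0.7 within the sets. KRT14, a basal keratin, had at most 1 count in any A549 library, but other keratins of the list were present. KRT15 averaged 11.2 ± 3.9 CPM in A549 KO and 9.46 ± 6.59 CPM in A549 WT. KRT5 averaged 1.58 ± 1.3 and 3.15 ± 2.76 CPM, and KRT6A 1.42 ± 0.287 and 0.982 ± 0.515 CPM, in the same order (SD, n = 3 each).

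Of 22 other lineage factors tested in H1944, 12 fell and 4 rose in KO (median -0.5), where 67.1% of all genes were called. Of the 18 that passed the filter through both groups, 11 fell and 2 rose. ELF3 and EHF, epithelial ETS factors, averaged 48.3 ± 0.367 and 20 ± 0.675 CPM in KO, against 211 ± 0.251 and 135 ± 4.4 CPM in WT (SD, n = 2 each; edgeR adjusted p = 3.57e-21 and 3.23e-21). NR2F2, a nuclear receptor, fell by 1.19 on the log2 scale. GATA2 and GATA3, paralogs of GATA6 known from blood and from breast and skin, rose 3.81-fold and 8.56-fold in H1944 KO. There GATA3 passed the filter only through KO, so its difference was found by construction. GATA3 averaged 7.02 ± 1.56 CPM in A549 KO and 2.42 ± 0.148 CPM in A549 WT (SD, n = 3 each; log2 fold change 1.56, edgeR adjusted p = 0.521, DESeq2 adjusted p = 0.0018). SOX4 and SOX21, relatives of SOX2, had log2 fold changes of 1.4 and 2.52 in A549 (edgeR adjusted p = 0.743 and 0.673), and within the sets SOX4 gave 1.39, 1.32 and 1.49 and SOX21 gave 2.37, 1.89 and 3.18. None of the 25 other lineage factors tested in A549 was called by edgeR, with 3 under 0.05 without adjustment, and DESeq2 called 2, GATA3 and SOX21 (adjusted p = 0.0332 for SOX21).

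**Figure D4:**
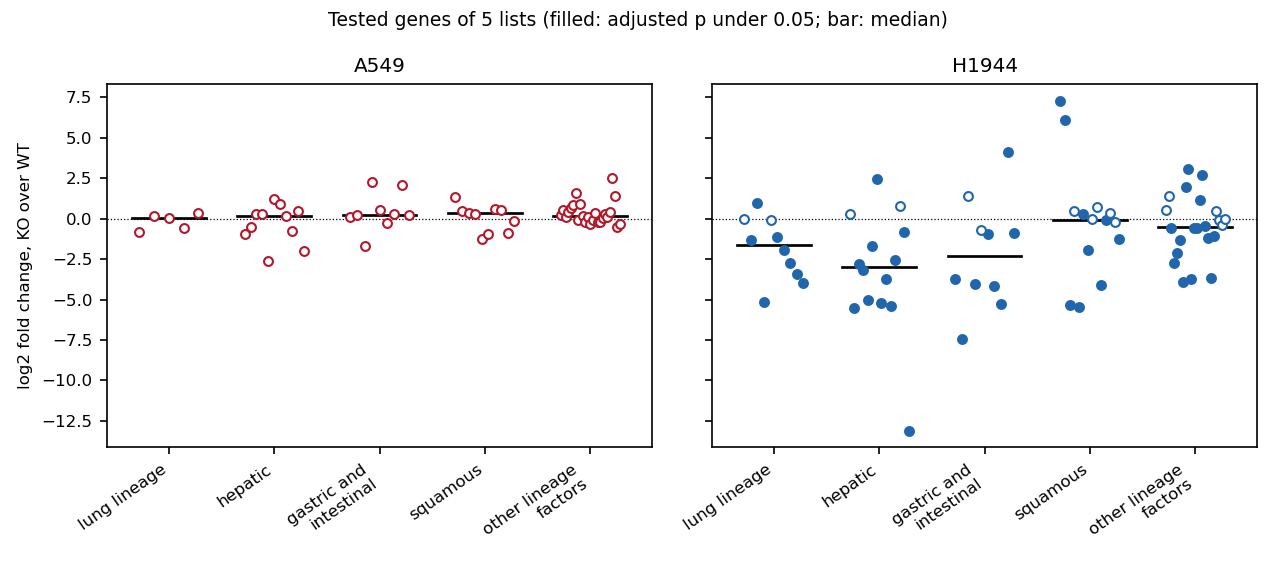
Log2 fold change of KO over WT for the tested genes of the lung, hepatic, gastric and intestinal, squamous and other lineage factor lists, in A549 and in H1944; filled points have an adjusted p under 0.05 and bars are list medians. H1944 medians are -1.62, -3.01, -2.33, -0.06 and -0.5 in that order, and no A549 point is filled; genes near the extremes are fitted from few counts in 1 group.

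Of 9 epithelial markers tested in H1944, 6 fell and 2 rose in KO, against 33.9% and 33.2% of all genes, and of the 7 that passed the filter through both groups, 4 fell and 2 rose. CDH1 (E-cadherin) averaged 7.86 ± 0.263 CPM in KO and 207 ± 0.423 CPM in WT, EPCAM averaged 0.931 ± 0.248 CPM in KO and 68.8 ± 1.86 CPM in WT, and KRT8 and KRT18 rose 1.76-fold and 1.97-fold (SD, n = 2 each; edgeR adjusted p = 6.71e-25, 2.44e-21, 4.42e-17 and 2.9e-18). The summed level of the list was 17200 to 17600 CPM in KO and 9700 to 9860 CPM in WT. Nearly all of it was KRT8 and KRT18, so the sum does not describe the 6 markers that fell. In A549 EPCAM averaged 64.1 ± 24 CPM in KO and 23.4 ± 7.72 CPM in WT (SD, n = 3 each; edgeR adjusted p = 0.649, DESeq2 adjusted p = 0.0433), and edgeR called none of 9 epithelial markers, with 2 under 0.05 without adjustment. The 10 fibroblast markers summed to 24.1 to 27.1 CPM in H1944 KO and 19.2 to 21.4 CPM in H1944 WT, with 4 of 7 tested higher and 1 lower, COL1A2 and PDGFRA at 0 in KO and THY1 at 0 in WT. Of the 4 fibroblast markers that passed the filter through both H1944 groups, 2 were higher and 1 lower. The 10 leukocyte markers summed to 57.1 to 59.5 CPM in H1944 KO and 34.1 to 35 CPM in H1944 WT, of which CD68 made 52.3 ± 1.42 CPM in KO and 27 ± 1.19 CPM in WT (SD, n = 2 each), with PTPRC, CD3E, CD3D and MS4A1 at 0 in KO. The 8 endothelial markers summed to 31.8 to 32 CPM in H1944 KO and 22.7 to 24.6 CPM in H1944 WT, mostly EGFL7, with KDR and ERG at 0 in both. The 10 neuroendocrine markers summed to 38.5 to 38.8 CPM in H1944 KO and 18.1 to 19.6 CPM in H1944 WT, with 3 of 5 tested higher and 1 lower, and to 70.4 to 93.5 CPM in A549 KO and 66.1 to 97 CPM in A549 WT. Of the 4 neuroendocrine markers that passed the filter through both H1944 groups, 2 were higher and 1 lower. In A549 edgeR called none of 5, with 1 under 0.05 without adjustment, and DESeq2 called CHGB (adjusted p = 0.00092), a secretory granule protein at 18.9 ± 11 CPM in KO and 4.05 ± 0.713 CPM in WT (SD, n = 3 each). In A549 the fibroblast markers summed to 19.3 to 36.8 CPM in KO and 14.8 to 19.2 CPM in WT, and the leukocyte markers to 43.6 to 45.9 CPM in KO and 38.1 to 52.3 CPM in WT. The part of these markers in the members' changes was not tested.

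Among transcripts that share a locus with a member, TTC6 lies on the opposite strand to FOXA1 and overlaps it. TTC6 fell with it in H1944 KO, at 1.96 ± 0.261 CPM in KO and 4.13 ± 0.358 CPM in WT (SD, n = 2 each; log2 fold change -1.08, edgeR adjusted p = 0.000326). The authors' strand setting is not given in the sources used here, so reads of FOXA1 and TTC6 cannot be told apart where they overlap. HNF4A-AS1 had 3 counts in A549 KO, 1 in A549 WT and 0 in H1944.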

How the data were processed

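Poly(A) RNA libraries were made from total RNA and sequenced as read pairs on a NovaSeq, per the labels' protocols. The values the authors deposited are whole-number counts for each symbol, not normalized, in a table for A549 and a table for H1944. Trim Galore 0.5.0, HISAT2 2.1.0, featureCounts 1.6.4 and DESeq2 (no version) with hg38 are named in the submitters' processing notes; annotation, strand setting and multi-mapping rule are not given in the sources used here. No column was left out. Genes were kept by filterByExpr (minimum count 10), scaled by TMM and tested in edgeR 4.0.16 (R 4.3.3) by quasi-likelihood with robust estimation, with Benjamini-Hochberg adjustment over all genes of a fit and a threshold of 0.05. Fits used the 6 A549 libraries, the 4 H1944 libraries, the 5 WT libraries, and all 10 for the difference between lines. SE is approximate, from the log2 fold change and its F statistic. Log2 CPM has a prior count of 2. DESeq2 1.42.0, limma-voom (limma 3.58.1), RLE size factors, no filter, each library left out, the A549 library sets and a replicate block were alternatives. Between libraries of a group, counts varied beyond sampling noise, to very unlike degrees. The chi-square per gene was 1.89 between A549 WT 2 and WT 3, 2.87 between the H1944 KO libraries and 3.26 between the H1944 WT libraries. It was 126 to 256 for the other A549 pairs. Whether the closer pairs are repeats of 1 culture is not stated in the labels. The fits were tested on simulated data. Gene positions come from GENCODE 29 (GRCh38). The members and the 11 gene lists were chosen with earlier results of these data known. Named genes are the members, APEX1, up to 6 genes per list and line with the smallest adjusted p, neighbours, and the 2 nearest profiles. Others were named after their values were seen. These are F10, TFF2, BNC1, ITGB4, GATA3, NKX2-8, KRT7 and KRT19 in H1944, KRT5, KRT14 and KRT15 in A549, surfactant genes and markers at or near 0. Some genes of the lists are counted but not reported here by name. Depth of 18314224 to 30219850 counts limits values under about 10 counts.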

Additional observations from a re-analysis of the deposited data

Results flagged for a closer look

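The A549 change minus the H1944 change, from 1 edgeR fit of all 10 libraries, passed an adjusted p under 0.05 for 5 members. It was 7.83 for FOXA2, 3.5 for HNF4A, 2.77 for HNF4G, 7.8 for SOX2 and 3.82 for TP63 on the log2 scale. The fitted values of FOXA2 and SOX2 depend on the prior count, because H1944 KO held 0 and 2 counts of them. FOXA2, HNF4A, SOX2 and TP63 did not pass the filter on low counts through H1944 KO. Their values restate the low counts there and are no separate support.

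Other named genes passed the same test. The change in A549 was the more negative for ENO2, a neuroendocrine marker, at -2.04, and for NKX2-8, a homeodomain relative of NKX2-1, at -2.77. For the following it was the more positive. Among lung genes it was 2.16 for MUC1, 6.33 for SFTPD and 3.7 for NAPSA. Among hepatic genes it was 2.66 for AMBP, 6.44 for F2 and 12.3 for UGT2B4. UGT2B4 entered that fit only through H1944 WT, where it was high, so its value is a description of that level and no support. Among gastric and intestinal genes it was 7.53 for CDH17, 6 for ANXA10, 3.89 for MUC5AC and 5.5 for MYO1A. Among squamous genes it was 4.63 for KRT6A. EHF and ELF3 stood at 2.87 and 2.48, and the epithelial adhesion genes CDH1 and EPCAM at 5.4 and 7.66. SFTPD, ANXA10 and UGT2B4 were not tested within A549 because their counts there were low. In the fit of all 10 libraries, SFTPD and ANXA10 passed the filter through every group but A549 WT. F2 and KRT6A passed it through every group but H1944 KO, and NKX2-8 through every group but H1944 WT.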

How the results depend on the processing

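In A549, DESeq2 called 1 member and 125 genes, against 0 members and 1 gene in edgeR. Without a filter and with a term for the library set 2 genes were called, and 0 in the larger set alone and in each fit without 1 library. The A549 log2 fold change of FOXA2, 0.04 in the main fit, turned to -0.1 in the larger set alone and ranged from -0.24 to 0.24 without 1 library (-0.24 without KO 65, 0 without WT 2 and -0.09 without WT 3). In H1944, 6 or 7 members were called in each alternative. Between WT lines, 3 to 7 members and 1527 to 13851 genes were called without 1 library, against 7 and 6943. For the difference between lines, 3 to 6 members and 397 to 2892 genes were called without 1 library, against 5 and 1228; DESeq2 called 2318 genes, limma-voom with line weights 2564 and a set term 2759. The cause was not tested. FOXA1's difference between lines was called without A549 KO 66 (1.91, edgeR adjusted p = 0.00398).

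With the replicate number as a block, 6 members and 11228 genes were called in H1944, and 6 members and 5502 genes between WT lines, where FOXA1 lost its call (edgeR adjusted p = 0.213). Deviations of equally numbered H1944 libraries correlated at 0.0132 over 16626 genes. With so few libraries, this value cannot decide whether equally numbered libraries share a culture or batch. No paired analysis was possible in A549 because the KO columns carry other numbers. Depth limits NKX2-1 in both lines and FOXA2, SOX2, HNF4A and TP63 in H1944, where KO libraries held 0 to 10 counts.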
